A study of Arabidopsis thaliana with 8 samples.

Results

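ExTQ015 is 1 of 8 diploid Arabidopsis thaliana strains, and its leaf RNA was compared with that of the 7 other strains at 25441 of the 25638 nuclear loci measured on the array. The 197 loci from AT2G41610 to AT2G43530 on chromosome 2 were set apart, because their RNA was lower as a block in this strain. Strain and stretch were chosen by their measured values in this same comparison, so the calls and adjusted p-values given here describe the array and support nothing further. Of the loci outside the stretch, 22191 were tested, which means that 1 array or more read their probe well above background.

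All 8 strains descend from parents that carried the gene for MseI, a restriction enzyme that cuts DNA at many sites, and that were heated for 3 h at 33 °C to activate it. This way of rearranging genomes in living plants is called Ex-TAQing. The strains ExTQ002, ExTQ013, ExTQ003, ExTQ005, ExTQ016, ExTQ018 and ExTQ019 share that history with ExTQ015, and all were grown for 4 weeks on plates with 1% sucrose and 0.8% agar, with 16 h of light and 8 h of darkness. Strains are named by the sample titles, because the description texts carry other strain numbers. The array titled ExTQ015 is described as ExTQ003, which is the title of another array here, and which of the labels is right was not tested. Each strain was measured on 1 array with 1 colour, so the 7 others are different strains and not replicates of 1 condition. The sources used here do not say whether the RNA of a strain came from 1 plant or several, and an unheated parent was not analysed here. The labels list the molecule as genomic DNA, while the protocols describe total RNA, 200 ng of which was labelled.

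Leaf RNA is dominated by transcripts for photosynthesis, and plants that differ in age, nutrition or defence differ in many further transcripts. A restriction enzyme acting in a plant cell can leave lost or gained segments of chromosome, which would show as runs of neighbouring genes that move together. It can also leave rejoined segments and alter single genes at a break. An expression array reads each gene from the brightness of 1 small spot of probe, and here the spots of consecutive loci lay a median of 157 rows apart on a grid whose rows number 532. Genes that are neighbours on a chromosome are thus far apart on the glass, and neighbours on the glass are unrelated in the genome.

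The level used throughout is the log2 of the processed spot signal minus the 75th percentile of its own array, so a level of 0 is that percentile. The 75th percentile of the ExTQ015 array was 1934.3 intensity units, within the range of 1831.4 to 2529.5 of the others, but its share of probes well above background was the lowest of the 8, at 61.29% against 62.04% to 67.68%. The median SD of repeated spots of a probe was the highest, at 0.082 against 0.055 to 0.077 (log2). ExTQ015 shared slide 1 with ExTQ002, ExTQ013 and ExTQ003, which was also scanned as a set, so slide and scan cannot be told apart.

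ExTQ015 had the fewest large differences of the 8 strains, each set against the mean of the other 7. Outside the stretch 1540 genes lay at least 1 log2 unit from that mean, of which 326 were higher and 1214 lower. The same count ran from 2043 in ExTQ003 to 6153 in ExTQ019. Over all 22376 loci tested the median difference was 0.01, and 1.46% were higher and 5.55% lower by at least 1. ExTQ015 was the highest of the 8 strains at 7.24% of the loci tested and the lowest at 6.02%. It stood above all others by more than 1 at 40 loci outside the stretch and below them by more than 1 at 35.

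Most genes of the leaf list were bright in ExTQ015, and genes of flower tissue were detected beside them. All 21 photosynthesis genes of the leaf list lay well above background, among them LHCB5 at a level of 7.11 and LHCB4.1 at 6.62, which encode light-harvesting proteins. In the others LHCB5 had a lowest level of 6.40, a median of 6.82 and a highest level of 7.03. Of the 16 seed storage and embryo genes 3 lay well above background in ExTQ015. Of the 14 root genes 9 were detected on any array and thus tested, and 6 lay well above background in ExTQ015. Their levels there ran from −6.92 for CASP4 to −2.46 for ESB1, and the lowest level that counted was −7.22. Seed genes such as CRA1, at −8.40 in ExTQ015, were at background on its array. All 13 flower organ genes and 8 of the 11 tapetum and pollen wall genes, 10 of which were tested, lay well above background in ExTQ015. The petal and stamen gene PI was at −0.14, and the floral MADS-box genes SEP1 and AP1 were at −0.34 and −0.86. What part other organs had in the RNA labelled as leaf was not tested.

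The limma fit of this array against the 7 others called 12 genes outside the stretch at an adjusted p under 0.05 and a difference of at least 1. Of these 11 were higher, 0.0492% of all 22376 loci tested on the array, and 1 was lower, 0.00447%. The lone strain is assumed in this fit to vary as the others do. No gene inside the stretch was called, and an unadjusted p under 0.05 was found at 197 loci outside it. The count depended on single other strains, with 5 genes without ExTQ005, 6 without ExTQ013 or ExTQ018 and 7 without ExTQ002. Against the 3 other strains of its slide 0 genes were called by limma, with 352 at an unadjusted p under 0.05, while the AGG2 difference was 10.17 there.

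**Figure D1:**
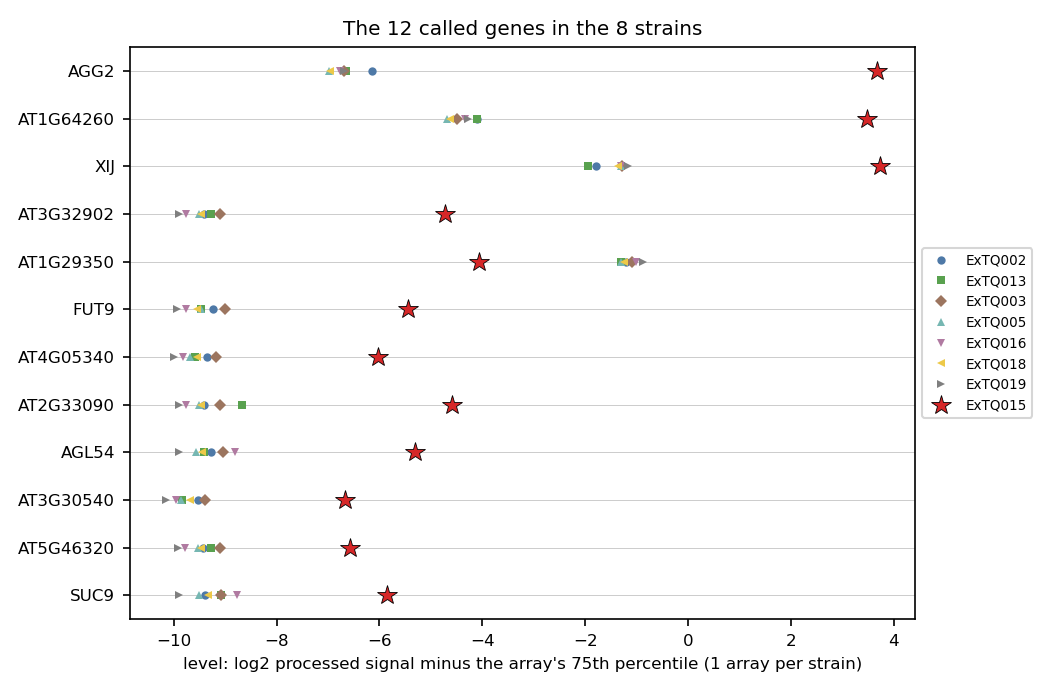
Level of each called gene (horizontal axis, log2 of the processed signal relative to the array's 75th percentile) in ExTQ015 (star) and in the 7 other strains (1 symbol per strain, 1 array each). AGG2, AT1G64260 and XIJ end at nearly the same level in ExTQ015, between 3.47 and 3.73, from very different levels in the others, and 8 of the genes lie near −9.5 in all others.

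The largest difference of the array was that of AGG2 (AT3G22942), a gene for a gamma subunit of the G protein trimer that relays signals from the cell surface. Its level was 3.67 in ExTQ015, and the others had a lowest level of −6.98, a median of −6.70 and a highest level of −6.14. The difference from their mean was 10.37 with a standard error of 0.30, which is 1324-fold (limma adjusted p = 4.16e-05). The size of the fold depends on the processing, since the AGG2 difference was 7.57 in the authors' deposited series values and 7.53 with normexp background correction. AGG2 lay well above background in 6 of the other 7 strains, so its RNA was detected nearly throughout, at a low level.

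AT1G64260, a protein-coding locus without a name in the reference, had a level of 3.47 in ExTQ015. The others lay between −4.68 and −4.11 with a median of −4.34, and the difference from their mean was 7.85 with a standard error of 0.26 (limma adjusted p = 6.00e-05). XIJ (AT3G58160), a class XI myosin, one of the motor proteins that move organelles along actin in plants, had a level of 3.73. Its lowest level in the others was −1.94, its median −1.31 and its highest −1.16, and the difference was 5.18 with a standard error of 0.32 (limma adjusted p = 0.00293). For all 3 genes the ExTQ015 value lay far outside the range of the others, and the 3 ExTQ015 levels lay between 3.47 and 3.73.

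The spots of these 3 genes are neighbours on the array. AGG2 sits at row 497 and column 22, XIJ at row 498 and column 21, and AT1G64260 at row 499 and column 22. Their median pixel intensities in ExTQ015 were 17076.5, 17706 and 15438. On the other arrays the AGG2 spot had 57 to 78.5, the XIJ spot 514.5 to 962 and the AT1G64260 spot 104 to 160. The centres found for the AGG2 and XIJ spots were 39.4 µm apart on the ExTQ015 array and 71.8 to 76.2 µm apart on the others. For XIJ and AT1G64260 they were 43.5 µm apart, against 68.5 to 73.4 µm.

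A further spot touches this trio. AT5G26150, at row 496 and column 21, was marked as non-uniform by the image software in ExTQ015 and was set aside for that reason. Its level there was −1.56, against a median of −9.03 in the others, while its median pixel of 61.5 lay within the 47 to 76.5 of the other arrays. Slightly further away, emb2411 (AT1G08840, row 494, column 20), a gene known from embryo-defective mutants, was at 1.02 in ExTQ015 and between −3.09 and −1.80 in the others. A second probe for emb2411 elsewhere on the array read −6.57 in ExTQ015, and the difference it gave was 1.05, against 3.30 from the first probe. This second probe was dim, well above background on 4 of the 8 arrays. ExTQ015 was its highest strain, against −8.65 to −6.66 in the others. None of the 12 called genes has a second probe on this array that could be set beside the first.

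**Figure D2:**
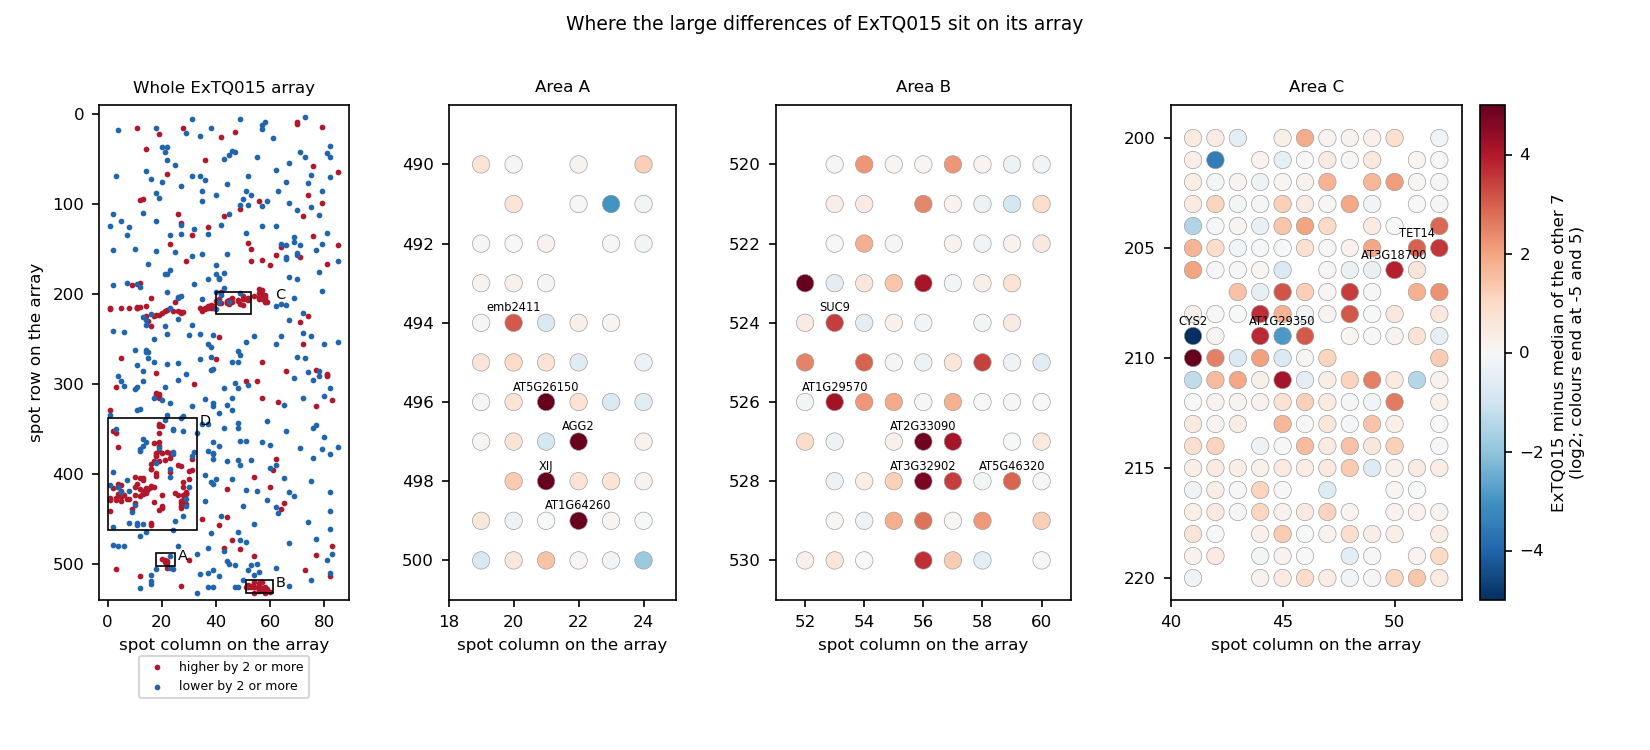
Left, row and column of every gene spot on the ExTQ015 array that lay at least 2 log2 units above (red) or below (blue) the median of the other 7 arrays, with 4 areas boxed; right, all gene spots of areas A, B and C coloured by that difference, with the genes named in the text. Red spots form a streak near rows 200 to 220, a patch in the boxed area D and dense groups at A and B, whereas blue spots lie over the whole array.

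Across the array, large differences upward sat beside each other far more often than large differences downward. Of 37685 gene spots 642 lay at least 2 from the median of the other arrays, 285 above it and 357 below. A spot has a median of 15 other gene spots within 150 µm, and 3.51% of all spots had at least 2 such neighbours that themselves lay apart by 2. Among the spots above the median this share was 41.05%, or 117 of 285, and among those below it was 4.48%, or 16 of 357. Of the 40 loci that stood above all others by more than 1, 23 were read from spots with at least 2 apart neighbours, which is 57.5%. Of all loci tested outside the stretch it was 3.55%. Among the 40, 26 were not well above background on any other array, and were tested only because the ExTQ015 array read them above background. Only 27 of the 22191 loci tested outside the stretch were of that kind, so the 3.55% is no like measure for these 26. Among the 7 of the 40 that lay well above background on all 8 arrays, 2 had at least 2 apart neighbours, or 28.57%. Among the 21 loci detected in all others and lower than each by more than 1 it was 3, or 14.29%. These 3 were AT1G29350, CYS2 and AT1G44542. The radius, the threshold and the areas described next were all chosen after the values were seen.

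The same count on the other arrays gave nearly equal shares for spots that lay apart and for all spots. On the ExTQ015 array 20.72% of the spots that lay apart in either direction had at least 2 apart neighbours, against 3.51% of all its spots. On the ExTQ003 array, which had a similar number of spots apart, the shares were 5.03% and 3.20%. On the ExTQ019 array, with the most spots apart, they were 28.42% and 27.43%. Counted over raised dim spots alone, those with a median of the others below −8 and at least 2 above it, neighbours of the same kind were also frequent on another array. On the ExTQ015 array 92 of 223 such spots, or 41.26%, had at least 2 of them as neighbours, against 1.82% of all spots. On the ExTQ002 array, of the same slide, it was 36 of 217, or 16.59%, against 0.70% of all spots. On the other 6 arrays the share ran from 0.81% to 7.19%.

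**Figure D3:**
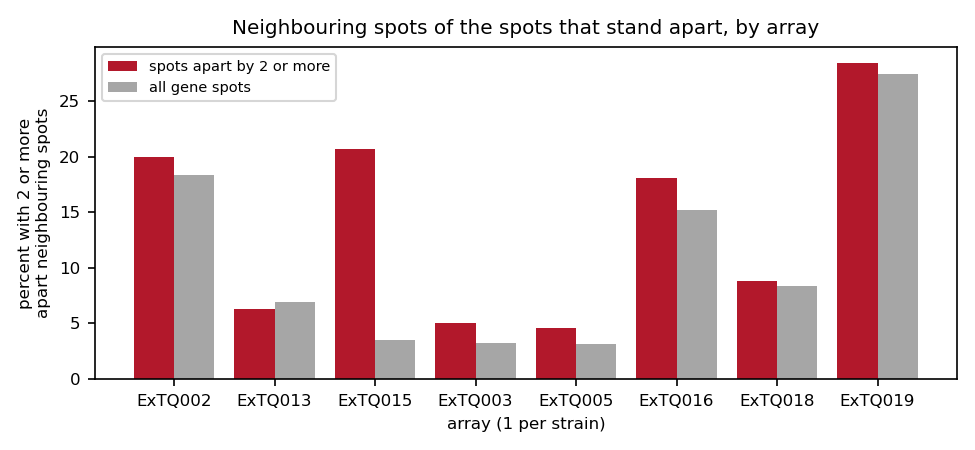
Percent of spots with at least 2 neighbouring spots (within 150 µm) that lay 2 or more log2 units from the median of the other arrays, for spots that themselves lay apart (red) and for all gene spots (grey), on each of the 8 arrays. The red bar stands far above the grey bar on the ExTQ015 array, at 20.72% against 3.51%, and near it on the others.

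All 12 called genes lie in 4 areas of the array. Besides the trio in area A, the spots of AT3G32902, AT2G33090, AT5G46320 and SUC9 lie in area B, rows 520 to 530 and columns 52 to 60. AT1G29350 lies in area C, rows 200 to 220 and columns 41 to 52. FUT9, AT4G05340, AGL54 and AT3G30540 lie in area D, rows 340 to 460 and columns 1 to 32. Areas A to C together cover 351 of the gene spots, and area D covers 3305.

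In area B 19 of the 28 spots that were dim in the others, with a median level below −8, stood at least 2 higher in ExTQ015, which is 67.86%. The share was 25.33% in area C, 8.38% in area D and 1.85% over the whole array. Brighter spots of area B, with a median of the others at −6 or above, showed no such shift. Their median difference was −0.003, and 0 of the 47 lay apart by 2.

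The 8 called genes of areas B and D were not well above background on any of the other 7 arrays. They were thus tested only because the ExTQ015 array read them above background, so their detection in ExTQ015 alone is no result. SUC9 (AT5G06170), a sucrose transporter that couples sucrose uptake to protons, was at −5.86 in ExTQ015 and between −9.90 and −8.77 in the others, with a median of −9.33. FUT9 (AT1G14110), which is named as a fucosyltransferase of the family that acts on cell wall sugars, was at −5.45 against −9.94 to −9.00, with a median of −9.48. AGL54 (AT5G27090), a MADS-box gene of the family of transcription factors known from flower development, was at −5.31 against −9.90 to −8.81, with a median of −9.41. In each case the ExTQ015 value lay apart from 7 values at background.

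The unnamed loci of this group had the same form. AT2G33090 was at −4.60 in ExTQ015, AT3G32902, a pseudogene in the reference, at −4.72 and AT3G30540 at −6.66. AT4G05340 was at −6.03 and AT5G46320 at −6.56. The highest value of any other strain was −8.68 for AT2G33090, and the other 4 loci stayed at or below −9.10 there.

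Because the other strains were at background, the fitted differences of these genes are not measured folds, and lower bounds are given instead. Their limma adjusted p likewise rests on the spread of background readings. Measured against the lowest signal that counted as well above background on each other array, the bound was at least 8.67-fold for AT2G33090 and at least 7.97-fold for AT3G32902. It was at least 5.29-fold for AGL54, 4.80-fold for FUT9, 3.62-fold for SUC9 and 2.07-fold for AT3G30540 (limma adjusted p from 0.00293 to 0.0463 over the 8 genes). Their median pixel intensities in ExTQ015 were 69 to 112.5, above local backgrounds of 34 to 46, and those of the other arrays were 41 to 58.5. In the authors' deposited series values the same 8 genes differed by 0.22 for SUC9 to 0.74 for AT2G33090.

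AT1G29350, a protein-coding locus without a name, was the single gene called lower. Its level was −4.06 in ExTQ015, and the others had a lowest level of −1.31, a median of −1.20 and a highest level of −0.87. The difference was −2.91 with a standard error of 0.21 (limma adjusted p = 0.00637), and its median pixel was 206 against 1014 to 1736. Its spot at row 209 and column 45 had 6 neighbours that lay apart by 2, the most of any called gene.

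CYS2 (AT2G31980), which encodes a phytocystatin, an inhibitor of cysteine proteases, lies in the same row at column 41. It was at −4.29 in ExTQ015, and the others had a lowest level of −0.83, a median of 1.02 and a highest level of 1.71. The difference was −4.93 with a standard error of 0.90 and did not pass (limma adjusted p = 0.807). TET14 (AT2G01960), a tetraspanin of the plasma membrane, at row 205 and column 51 of that area, was at −5.15 against −8.64 to −7.56 and fell just outside the threshold (limma adjusted p = 0.179). NIC3, a nicotinamidase gene at row 219 and column 26, was at −5.27 against −9.87 to −8.35, and AT3G18700 in area C was at −4.44 against −9.94 to −7.46, and neither was called. The other loci just outside were emb2411 (limma adjusted p = 0.296) and AT1G29570 in area B (limma adjusted p = 0.346), and those just inside were AT3G30540, AT5G46320 and SUC9 (limma adjusted p of 0.017, 0.0331 and 0.0463).

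With the loci left out whose spot had at least 2 apart neighbours, 787 of the 22191, the adjustment over the remaining loci called 2 genes, FUT9 and AT4G05340. Each of these has 1 such neighbour. With every locus left out that had at least 1, 4441 in all, 0 genes were called by limma, with 126 at an unadjusted p under 0.05. In the deposited series values 5 genes were called, AGG2, AT1G64260, XIJ, AT1G29350 and PSK1. With normexp background correction 0 were called, with 53 at an unadjusted p under 0.05. What part the surroundings of a spot play in its value was not tested.

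Genes that lie next to the called genes on the chromosomes gave no such differences. The 3 tested loci on each side of the 12 genes came to 72 loci, whose differences had a median of −0.07 and ran from −2.72 to 1.45. ExTQ015 was the highest of the 8 strains at 3 of them and the lowest at 4, where the shares over all loci tested were 7.24% and 6.02%. Of the 72 loci 8 lay apart by at least 1. Over all loci tested 1.46% were higher and 5.55% lower by that much. The locus beside FUT9 with the lowest value was FUT6 (AT1G14080), a fucosyltransferase of the same family. It was at −8.23 in ExTQ015, not well above background, and between −7.28 and −2.24 in the others.

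Relatives of XIJ and SUC9 were also on the array. Among 12 other myosin XI genes tested, the differences had a median of −0.08 and ran from −1.86 for XIE to 0.77 for XIC. XIE was not well above background in ExTQ015, and the bound for it was at least 3.20-fold lower than the mean of the others. MYA1 differed by 0.13, MYA2 by −0.04 and XIK by −0.19. The sucrose transporter SUC2, which loads sugar into the phloem, differed by −0.16, SUC1 by −0.76 and SUC7 by 0.83. SUC5 differed by −2.08 but was not well above background in ExTQ015, with a bound of at least 3.72-fold lower.

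The partners of AGG2 in the heterotrimeric G protein stayed within 0.26 of the mean of the others. The alpha subunit gene GP ALPHA 1 was at 2.50 in ExTQ015 and at 2.21 to 2.53 in the others, and the beta subunit gene AGB1 was at 2.41 against 2.15 to 2.44. The gamma subunit gene GG1, the closest relative of AGG2, was at 1.47 and exceeded the highest other strain by 0.01. AGG3, a further gamma subunit gene, was at −0.85 within a range of −3.37 to 0.06. The regulator RGS1 and the extra-large alpha subunit genes XLG2 and XLG3 lay inside the range of the others, and XLG1, at 0.79, lay 0.07 below it. AGG2 was thus the only one of the 9 genes with a difference of at least 1.

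A further ranking of the highest loci of ExTQ015, added after the values were seen, took loci well above background on all 8 arrays. It also left out spots with at least 2 apart neighbours. The detection filter alone removed FUT9, AT4G05340, NIC3 and AT5G46320, which exceeded the others by 2.55 to 3.55 with 1 apart neighbour each. The ranking spanned gaps of 0.77 to 2.81 to the nearest other strain. Besides emb2411 it was led by AT1G07985 at −0.91 against a highest other level of −2.22, and by the carboxypeptidase gene scpl33 at −3.52 against −4.79. NIG1, named as a gene induced by salt, was at −2.16, with a lowest level of −6.60, a median of −4.51 and a highest level of −3.40 in the others. NTL8, a NAC transcription factor held at membranes, was at −3.74 and exceeded the others by 1.01. SHN2, a transcription factor of the family that promotes cuticle wax, was at −2.79 against −4.99 to −3.57. None of these 10 loci was called, and all had a limma adjusted p of 1 except emb2411.

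Of the 10 lowest loci of ExTQ015, 8 were not well above background in this strain. The ranking admitted such loci only where all others detected them, so that detection is no result. MYB21 (AT3G27810), a transcription factor of stamen and petal growth, was at −8.75. From low to high, the others had −6.97 in ExTQ013, −6.01 in ExTQ019, −5.91 in ExTQ002, −2.19 in ExTQ003, −0.85 in ExTQ005 and 0.96 in ExTQ016, and ExTQ018 was highest at 1.37. ExTQ015 lay below a widely spread group of 7, and the bound against the mean of the others was at least 21.4-fold lower (limma adjusted p = 1). A second probe for MYB21 read −8.98 in ExTQ015, and with it ExTQ013 and ExTQ019 were lower still, at −9.54 and −9.65.

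AT3G49540 ranked the strains in a similar order. It was at −9.03 in ExTQ015 and had a lowest level of −6.56, a median of −1.33 and a highest level of 1.83 in the others, a bound of at least 29.0-fold lower than their mean. AT1G43040, known as SAUR58 and a member of the small auxin-upregulated RNA family, was at −8.93 against −6.75 to −4.91, at least 2.48-fold lower. AT5G46960 was at −9.23 against −7.13 to −4.26, AT3G13229 at −8.68 against −6.86 to −4.36 and AT1G44542 at −8.39 against −6.99 to −0.77. AT1G77530, at −6.90 against −4.87 to −3.51, and AT1G06090, at −7.49 against −5.56 and above, were also not well above background in ExTQ015. Of these 8 loci all but AT1G44542 and AT1G77530 had no apart neighbour on the array, and none was called. Without the loci that had at least 2 apart neighbours, the ranking of the 10 lowest lost CYS2, AT1G29350 and AT1G44542 and gained TRI, CYP76C3 and AT5G40040, which were 1.31 to 1.35 below the nearest other strain.

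Genes of cell death in development were lower in ExTQ015 as a set. In bulk leaf RNA, fewer cells of a type and less RNA per cell cannot be told apart. The list of 8 genes was drawn up after their values were seen, so its counts are a description. All 8 were lower than the mean of the others, 7 of them by at least 1, with a median difference of −1.45, and ExTQ015 was the lowest of the 8 strains in 7. The same count over all loci tested was 6.02%, and the choice of the list fixes its direction.

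MC9, a metacaspase that acts in dying xylem cells, was at −2.05 in ExTQ015. The others had −1.16 in ExTQ005, −1.13 in ExTQ002, −0.89 in ExTQ003, −0.23 in ExTQ019, 0.04 in ExTQ013, 0.13 in ExTQ018 and 0.65 in ExTQ016. BFN1, a nuclease of senescence and cell death, was at −1.72 against a lowest level of −1.20, a median of −0.02 and a highest level of 0.40. RNS3, a ribonuclease, was at −1.86 against −1.16 to 1.37, and the carboxypeptidase gene scpl48 was at 1.17 against 1.87 to 2.76. CEP1, a cysteine protease gene, was the exception, at −0.68 with ExTQ002 lower at −1.02. The spots of RNS3 and scpl48 had 2 apart neighbours each, and those of MC9 and AT4G04460 had none.

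**Figure D4:**
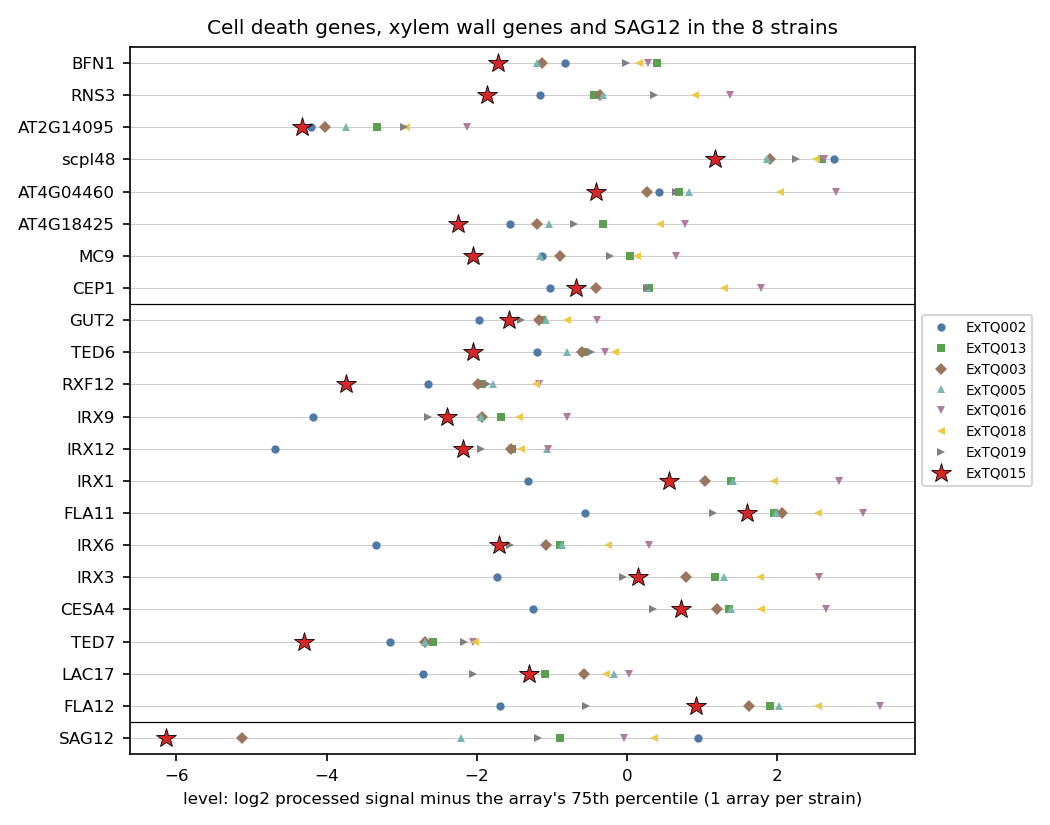
Level (horizontal axis, log2 of the processed signal relative to the array's 75th percentile) of 8 cell death genes (top), 13 xylem wall genes (middle) and SAG12 (bottom) in ExTQ015 (star) and the 7 other strains (1 array each). ExTQ015 is the lowest strain for 7 of the 8 cell death genes and for TED6, RXF12 and TED7, and lies inside the range of the others for the remaining wall genes.

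Of 13 genes of the xylem wall, a list also drawn up after the values were seen, 3 followed this pattern. TED7, which is needed as water-conducting cells differentiate, was at −4.30, and the others had a lowest level of −3.16, a median of −2.58 and a highest level of −2.02. TED6, a gene of the same process, was at −2.05 against −1.20 to −0.17, with a median of −0.58. RXF12, which encodes a xylanase, was at −3.74 against −2.65 to −1.17, with a median of −1.87. Their differences were −1.82 (standard error 0.43), −1.46 (0.36) and −1.94 (0.50), none of the 3 was called, and none of their spots had an apart neighbour.

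The cellulose synthase genes of the secondary wall did not set ExTQ015 apart. CESA4 was at 0.71 in ExTQ015, above ExTQ019 at 0.34 and ExTQ002 at −1.26. IRX3 and IRX1, the other cellulose synthase genes of that complex, were at 0.15 and 0.56, again with ExTQ002 lowest. The list of 13 had a median difference of −0.44, and of 0.15 against the strains of the same slide alone. The 9 genes of xylem regulators and proteases, among them the NAC factor VND7 and the proteases XCP1 and XCP2, had a median of −0.39, and of 0.34 against the strains of the same slide, and ExTQ015 was the lowest strain in none of them.

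SAG12, a cysteine protease gene widely used as a marker of leaf senescence, was the list member with the second largest difference after AGG2. It was at −6.14 in ExTQ015, and the others had −5.13 in ExTQ003, −2.21 in ExTQ005, −1.19 in ExTQ019, −0.89 in ExTQ013, −0.04 in ExTQ016, 0.35 in ExTQ018 and 0.95 in ExTQ002. ExTQ015 and ExTQ003 lay together far below the other 6. The difference was −4.98 with a standard error of 1.96 and was not called (limma adjusted p = 1). The 10 senescence genes as a list had a median difference of −0.06, with 4 higher and 6 lower.

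Heat shock genes were low in ExTQ015, and as a list lower still in ExTQ003, with centred medians of −0.80 and −1.01. Of 13 genes 12 lay below the mean of the others, with a median difference of −0.91, and 6 lay below it by at least 1. Over all loci tested 50.7% lay above that mean, and 5.55% were lower by at least 1. HSP17.4, HSP21, HSP17.6II and HSP17.6A, all among the 6, were not well above background in ExTQ015. ExTQ015 was the lowest strain for HSP101, which encodes a chaperone that unfolds aggregates, at −1.93 against −1.87 to −0.28. It was also the lowest for MBF1C, at 1.43 against 1.52 to 3.97, and for DREB2A, a transcription factor of heat and drought, at 0.25 against 0.25 to 2.70. For the small heat shock gene HSP17.6A, at −7.23, ExTQ003 was lower at −7.68. For HSP101, MBF1C, DREB2A and HSP17.6A ExTQ019 was the highest strain, and without ExTQ019 the median difference of the list was −0.61.

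Genes of salicylic acid defence lay below the mean of the others in ExTQ015, though not at the lower end of the strains. Of 19 genes 18 were lower than the mean of the others, and the median difference was −0.83, with ExTQ019 the highest strain as a list. Without ExTQ019 the median difference was −0.15. ExTQ015 was the lowest strain for 1 of the 19, NIMIN1, which encodes a protein that binds the defence regulator NPR1, at −4.87 against −4.45 to 0.43. FMO1, an enzyme of systemic resistance, was the exception above the mean, at −3.42 within a range of −9.75 to 0.78. As a list ExTQ015 lay above 4 of the other strains. In the jasmonate list of 17, the defensin gene PDF1.2 was at 1.91 in ExTQ015, close to the highest other level of 2.05 in ExTQ002, and the list's median difference was −0.12.

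**Figure D5:**
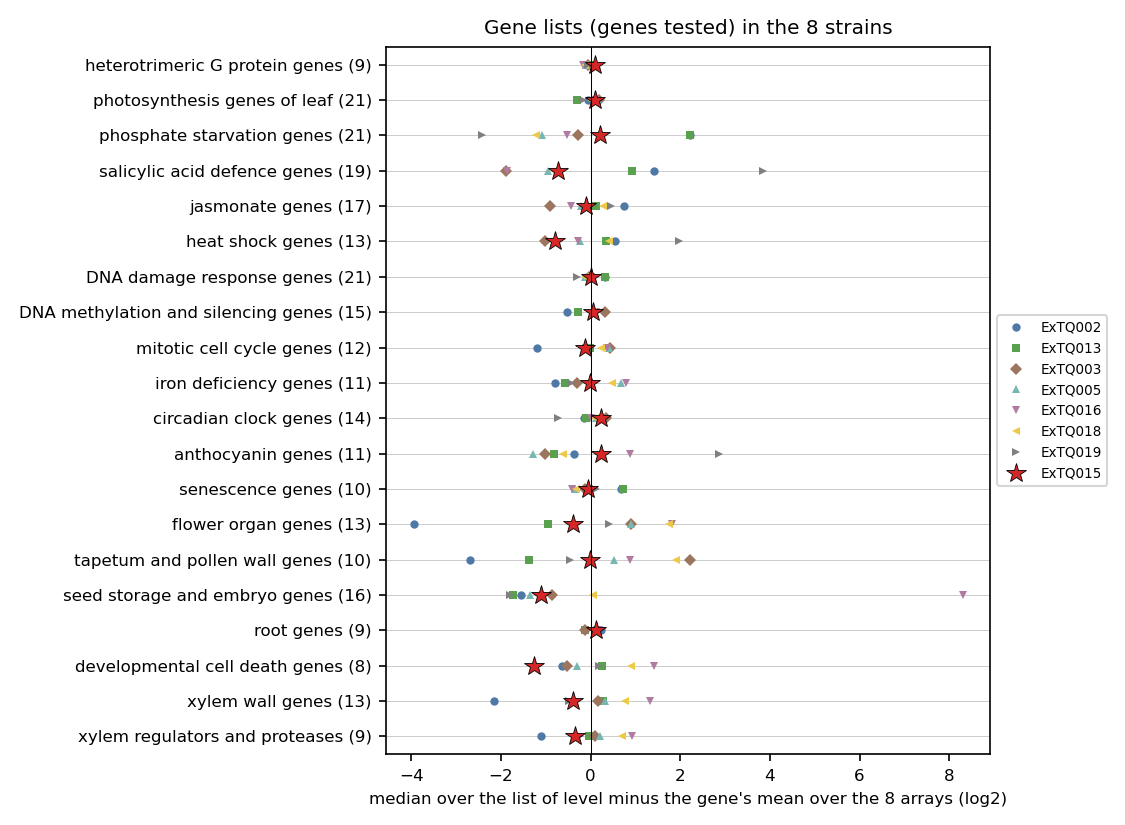
Median over each gene list of the level minus the gene's mean over the 8 arrays (horizontal axis, log2), for ExTQ015 (star) and the other strains (1 symbol per strain), with the number of genes tested in brackets. ExTQ015 lies at the lower end only for the developmental cell death genes, at −1.27, a list drawn up after its values were seen. It lies at the upper end only for the G protein genes, a list that includes AGG2, at 0.09 against 0.03 in ExTQ013. For the remaining lists it lies inside the range of the other strains.

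For lists that spread the strains widely, ExTQ015 lay between the extremes. The 21 phosphate starvation genes had a centred median of 0.22 in ExTQ015, against 2.22 in ExTQ013, 2.21 in ExTQ002 and −2.41 in ExTQ019. SPX3, a sensor of phosphate status, was at −0.33 within a range of −7.05 to 2.61. The 13 flower organ genes had a centred median of −0.38, between −3.94 in ExTQ002 and 1.83 in ExTQ016. The petal and stamen gene PI was at −0.14 within a range of −1.22 to 2.83. For 10 tapetum and pollen wall genes the centred median was −0.02, between −2.69 and 2.21.

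Lists of genome maintenance showed small differences. The 21 DNA damage response genes had a median difference of 0.01, with 11 higher and 10 lower. LIG4, listed as ATLIG4 in the reference and encoding the ligase of end joining, was at 0.15 in ExTQ015 and at −0.63 to 0.04 in the others. ATR, a kinase that senses damaged DNA, was at −3.15 against −4.01 to −3.18. Of 15 genes of DNA methylation and silencing 14 were higher than the mean of the others, and the median difference of the list was 0.06. Over all loci tested 50.7% lay above that mean. As a list ExTQ015 lay above 3 of the other strains, with a centred median of 0.055, against −0.515 in ExTQ002 and 0.333 in ExTQ003. The demethylase gene DML1, also known as ROS1, had the largest difference, at 0.18 against −2.05 to −0.18, a difference of 1.05 with a standard error of 0.67, and was not called. The 12 mitotic cell cycle genes had a median difference of −0.14, and the 14 circadian clock genes 0.26.

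Among the clock genes ExTQ015 was the highest strain for FKF1, ELF4 and PRR3 and the lowest for GI and RVE8. ELF4, a component of the evening complex, was at 1.88 against 0.07 to 1.76. PRR3, a pseudo-response regulator, was at 1.74 against −0.34 to 1.59, and RVE8, a morning-phased MYB factor, at −3.34 against −3.15 to −0.92. Over these 5 genes the gap to the nearest other strain was 0.03 to 0.19, smaller than the range among the others. The 11 anthocyanin genes had a median difference of 0.27 and the 11 iron deficiency genes −0.01. The 16 seed storage and embryo genes had −1.27, with ExTQ016 far above all other strains.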

How the data were processed

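RNA of 8 strains was hybridised to 1-colour Agilent arrays, and the authors read the deposited intensity values from the scans with Agilent's Feature Extraction software (version 11.0.1.1), per the file headers. The authors' deposited series table holds log2 values with nearly equal quantiles, column medians of 7.638 to 7.645; the submitters' processing notes name limma without a version or steps, so its background correction and scaling remain unknown here. Outlier-flagged spots were set aside, the spots of a probe averaged, and log2 processed signals scaled to each array's 75th percentile. Of the 541 loci with several probes, the one brightest on average was used. ExTQ015 was tested against 7 strains with limma 3.58.1 (lmFit, eBayes, Benjamini-Hochberg over 22376 loci). Python 3.11.15, with numpy 2.4.6 and pandas 2.3.3, did the rest. The fit was tested on simulated data. The number of arrays limits the precision. p-values measure the spread between strains, not between samples of a strain. For the 8 called genes at background in all other strains, that spread is one of background readings.

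Alternatives were normexp (offset 50), quantile normalization, the deposited values, other filters and thresholds, slide, all probes, and each other strain left out. The files hold no mean spot signal, so normexp used the spot median and the local background median. Leaving out spots beside apart spots was chosen after the data were seen. Names came from RefSeq TAIR10.1, which matched 25427 of 25638 loci. The strain, the excluded stretch and the 17 gene lists were chosen with earlier results of these data known, and 3 further lists after seeing them. Named genes were all called loci; the 10 highest and 10 lowest by distance from the nearest other strain, among loci well above background in ExTQ015 or in all others; the 3 on each side of the threshold; chromosome neighbours; list members set apart by 1 and all G protein genes; and named relatives. Other list members are named as examples chosen after their values were seen.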

Additional observations from a re-analysis of the deposited data

Results flagged for a closer look

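The spot of AT5G26150 was left out of the main measurement, because the image software marked it as non-uniform on the ExTQ015 array. Its level there was −1.56, above the median of −9.03 on the other arrays, and it lies beside the bright spots of AGG2, XIJ and AT1G64260. What the raised level stems from was not tested. For AIF1, a helix-loop-helix gene that acts in brassinosteroid responses, the level of ExTQ019 was −2.52, far below the other 6 strains of its group, so the mean that ExTQ015 was set against rests partly on that array. Among 25 genes with such a check 1 was marked in this way, and chance alone marks about 1 in 20.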

How the results depend on the processing

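The 12 calls held in number under quantile normalization (12), the mean of all probes (12), no filter on dim probes (13), slide as a block (10) and an adjusted p under 0.1 (12). They fell to 0 with normexp and within the slide, 5 in the deposited series values, 3 among genes detected on every array, 4 with a trended and robust fit and 5 at an adjusted p under 0.01. Leaving out each other strain gave 5 to 13. Leaving out spots with at least 2 apart neighbours, an alternative chosen after the data were seen, gave 2, and with at least 1 such neighbour 0. Fewer strains or loci enter some of these fits; otherwise the cause was not tested. AGG2 kept its direction in all 15 alternatives that could be run for it, from 7.53 to 10.46, and XIJ in all 16, from 4.82 to 5.39. SUC9 lost its call in 10 of 15 and ranged from 0.08 to 3.53. None of the genes recomputed under the alternatives, which leave out most list members, changed direction. List medians that changed sign included those of flower organ genes, from −0.99 to 0.94, and xylem wall genes, from −0.90 to 0.15. Those of the developmental cell death genes stayed between −1.59 and −1.20. The cell death list was drawn up after its values were seen, which fixes its direction, so its steady sign is no result. Signal near background limits the 8 dim calls, for which only lower bounds of the fold can be given. No paired analysis was possible because the groups share a single replicate number, which the labels do not give.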
